A study of Homo sapiens with 3 samples.

Results

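Antisense genes are genes whose symbol ends in AS and a number, in most cases after the name of a neighbouring sense gene on the other strand. They were chosen by that symbol in the array annotation and by a measured value, a mean signal of at least 100 over the 3 arrays. The differences between arrays were not used to choose them, except as far as 1 bright array lifted a mean. The annotation named 1083 antisense probe sets of 781 such genes, and 227 probe sets of 183 genes passed, out of 19775 named genes on the array. The other 598 antisense genes lay below that mean signal. The series asked which mRNAs targeted by miR-34a are regulated through degradation of the mRNA. It used NCI-H1299, an established human lung cancer line grown in RPMI-1640 medium with 10% FBS, on 1-colour Affymetrix arrays made from 250 ng of total RNA. The mock array is the control, and the labels do not say what was given to those cells. The miR-34a array and the ghR-34a array come from cells transfected with the named RNA at 25 nM by lipofection with RNAiMAX for 48 hours. The labels describe ghR-34a by name alone, and no array with an unrelated small RNA was analysed here.

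Natural antisense transcripts are RNAs made from the strand opposite to another gene, and most are long noncoding RNAs. Some start beside the promoter of the sense gene and run away from it, some overlap its exons, and single examples are known to alter the transcription, splicing or stability of their sense RNA or to bind microRNAs. miR-34a is a tumour-suppressive microRNA that pairs through its seed with sites in mRNAs and lowers genes of the cell cycle and of growth signalling. In RefSeq the members are nearly all lncRNA genes, 180 of 183, and the remaining ones are 2 antisense_RNA entries and 1 with no entry.

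The mature miR-34a-5p is shown because it is the molecule the study is about, with its seed, bases 2 to 8, in capitals. The sequence is from RefSeq (GRCh38.p14), and the labels do not give the sequence of the RNA that was transfected.

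hsa-miR-34a-5p: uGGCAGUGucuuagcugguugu

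Regions before gene starts are shown for the pairs described most fully below. HMMR and SERTAD4 were taken because antisense and sense gene differed by at least 0.5 on the log2 scale in the same direction, HMMR in both comparisons with mock and SERTAD4 with miR-34a alone. The ATXN1 pair met this with miR-34a too and is not shown, as the table lists no start window for ATXN1-AS1. OIP5-AS1 and SLC38A2 were added after their values were seen, OIP5-AS1 as the member with the highest signal and SLC38A2 as the start that SLC38A2-AS1 lies beside. Capitals mark matches, on either strand, to TTTGAA (the core of the cell cycle homology region), GGCGGGAA and TTTCGCGC (E2F motifs) and CCAAT. All are RefSeq sequences on GRCh38.p14. The windows are chr5:163494009-163494308 (minus strand) for HMMR-AS1, chr5:163460382-163460631 (plus) for HMMR, chr1:210232546-210232795 (plus) for SERTAD4, chr15:41283740-41284039 (plus) for OIP5-AS1 and chr12:46372774-46373023 (minus) for SLC38A2. The windows of HMMR-AS1 and OIP5-AS1 run from 250 bases before to 50 bases after the start, and the others end at the start.

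HMMR-AS1: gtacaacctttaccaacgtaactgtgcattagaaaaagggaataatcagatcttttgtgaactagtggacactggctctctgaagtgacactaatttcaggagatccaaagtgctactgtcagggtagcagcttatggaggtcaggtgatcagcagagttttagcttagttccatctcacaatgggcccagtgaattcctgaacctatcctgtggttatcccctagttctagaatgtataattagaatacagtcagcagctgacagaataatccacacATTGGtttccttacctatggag
HMMR: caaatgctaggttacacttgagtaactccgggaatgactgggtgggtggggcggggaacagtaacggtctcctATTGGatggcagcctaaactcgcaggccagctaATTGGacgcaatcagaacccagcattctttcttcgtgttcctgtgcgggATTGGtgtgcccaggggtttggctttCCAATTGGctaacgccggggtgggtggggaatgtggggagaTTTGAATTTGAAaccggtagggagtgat
SERTAD4: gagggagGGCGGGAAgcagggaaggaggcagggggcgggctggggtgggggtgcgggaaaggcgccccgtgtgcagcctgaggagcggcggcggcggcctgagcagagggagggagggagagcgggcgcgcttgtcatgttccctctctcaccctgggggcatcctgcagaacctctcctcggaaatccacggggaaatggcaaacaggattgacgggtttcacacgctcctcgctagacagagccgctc
OIP5-AS1: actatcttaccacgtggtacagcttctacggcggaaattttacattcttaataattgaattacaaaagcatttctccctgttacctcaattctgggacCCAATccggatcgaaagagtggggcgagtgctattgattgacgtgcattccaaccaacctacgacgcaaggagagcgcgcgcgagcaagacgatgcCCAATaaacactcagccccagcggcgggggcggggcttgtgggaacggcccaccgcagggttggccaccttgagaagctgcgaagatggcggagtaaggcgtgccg
SLC38A2: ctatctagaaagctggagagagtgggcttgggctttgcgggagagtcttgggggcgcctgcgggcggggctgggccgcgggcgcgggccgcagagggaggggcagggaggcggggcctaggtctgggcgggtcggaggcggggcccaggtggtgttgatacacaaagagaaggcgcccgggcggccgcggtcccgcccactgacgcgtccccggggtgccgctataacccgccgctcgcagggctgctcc

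The HMMR window held 2 matches to TTTGAA and 5 to CCAAT, one CCAAT overlapping its own reverse complement, while the HMMR-AS1 window held 1 CCAAT. OIP5-AS1 had 2 CCAAT matches, SERTAD4 had 1 match to GGCGGGAA, and SLC38A2 had none of the 4 motifs. Start windows of 300 bases were listed for 152 of the 183 members, 192 windows in all. TTTGAA was in 6.25% of them, against 15.2% of all 35116 windows in the table, and CCAAT in 30.2% against 34.6%. GGCGGGAA was in 3.65% against 3.16%. TTTCGCGC was in 1.56%, only 3 windows, against 0.515%. The members' windows had a median G and C content of 65.8%, against 58.7% for all windows. A match is a run of letters and not a known site.

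Each condition has 1 array, so no value below has a replicate, and a difference compares these arrays and not the conditions. Differences are log2(signal + 32), which damps changes at low signal. The 42 probe sets of bacterial and phage spike-in RNAs differed between arrays with an SD of 0.13 for miR-34a against mock, 0.16 for ghR-34a against mock and 0.13 for ghR-34a against miR-34a. The median probe set signal was between 69.2 and 75.0 on each array. No detection calls were used, and a low signal may not exceed background. KRT8, KRT18 and VIM, of epithelial and mesenchymal cells, had mean signals of 3321, 20371 and 33799. EPCAM and KRT19, of epithelial cells, had 23.9 and 6.03. None of 3 leukocyte markers reached 100, and their sums were 86.0 to 147 per array. Of 2 endothelial, 3 fibroblast and 4 lung epithelial markers, 1, 1 and 2 reached 100, with summed signals of 134 to 182, 406 to 411 and 348 to 424 per array. The reported miR-34a targets FOSL1, MET, CDK4 and CDK6 differed from mock by -2.43 to -0.94 with miR-34a and by -1.54 to -0.90 with ghR-34a, while GAPDH and ACTB differed by 0.12 or less.

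The members were dim. Their mean signal ran from 101 to 6163 with a median of 215 and quartiles of 138 and 393, and 83 of the 183 lay under 200. By comparison, 11080 named genes passed the same threshold with a median of 927. A probe set's signal also depends on its sequence, so these figures rank probe sets and not RNA amounts. In 29 members at least 1 array was below 100, so that the mean passed through the brighter arrays, and such members had to differ between arrays. Of the 5 members at 2-fold or more in any comparison, 4 were of this kind. At the threshold, DNAAF3-AS1 (mean signal 102.8), probe sets of NR2F1-AS1 (101.2), TSPEAR-AS2 (101.2), ZSCAN16-AS1 (100.8) and PAPLN-AS1 (100.5) were just inside. LOXL2-AS1 (99.96), KMT2E-AS1 (99.9), BFSP2-AS1 (98.8), MSC-AS1 (97.9) and ZBED3-AS1 (96.8) were just outside.

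**Figure D1:**
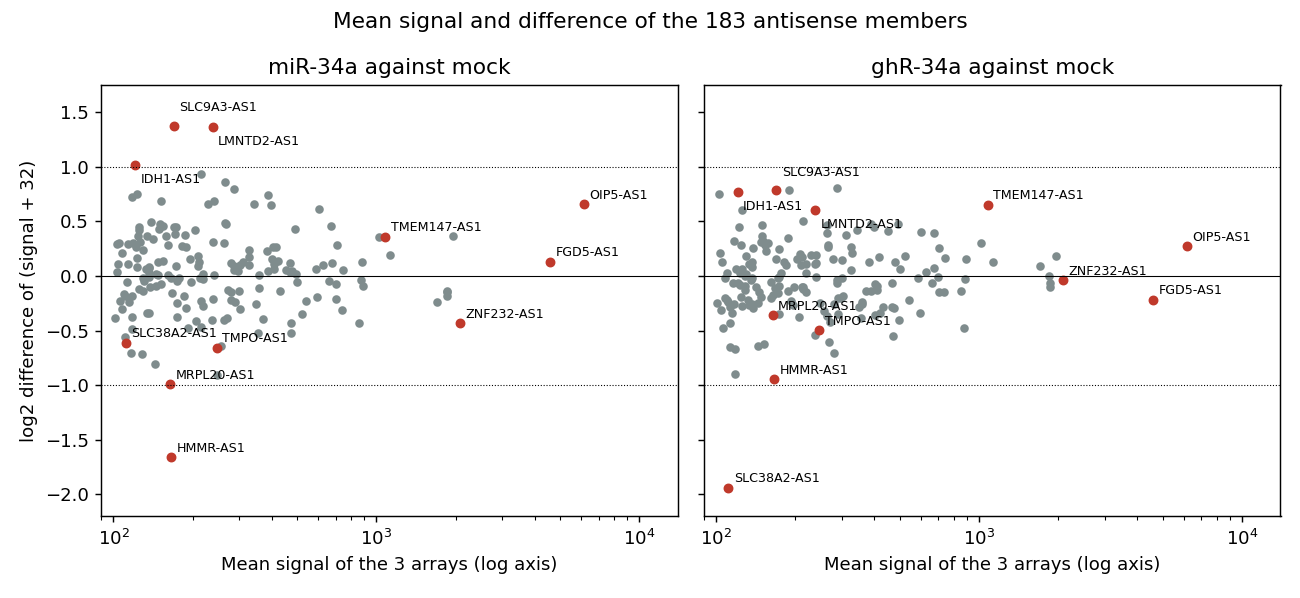
Mean signal of the 3 arrays (log axis) against the log2 difference from mock for the 183 members, with miR-34a on the left and ghR-34a on the right. Each point is 1 antisense gene and dotted lines mark 2-fold. LMNTD2-AS1 has the highest mean signal, 238, of the members past the lines, and OIP5-AS1 and FGD5-AS1, with the highest signals, lie inside them.

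With miR-34a, 4 of the 183 members were at least 2-fold from mock. HMMR-AS1 was lower, 0.546% of members against 1.16% of all genes and 1.32% of the 5769 genes under a mean signal of 1000. SLC9A3-AS1, LMNTD2-AS1 and IDH1-AS1 were higher, 1.64% against 1.21% and 1.79%. At 1.5-fold, 9 members were lower (4.92%, against 5.23% of all genes) and 16 were higher (8.74%, against 6.31%). Of the dimmer genes, 5.89% were at least 1.5-fold lower and 9.14% higher. Their differences had an SD of 0.42 over genes, against 0.38 for all genes and 0.40 for the members, and the members' shares are near theirs. The members' median was 0.05, with 104 of 183 above 0, against 0.04 for all genes and 0.06 for the dimmer ones. Above 0 were 56.8% of the members, 55.1% of all genes and 56.6% of the dimmer ones.

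With ghR-34a, 1 member, SLC38A2-AS1, was at least 2-fold lower (0.546%, against 0.496% of all genes and 0.711% of the dimmer ones) and 0 were higher, against 0.442% and 0.676%. At 1.5-fold, 9 were lower (4.92%, against 3.69%) and 8 higher (4.37%, against 2.97%). Among the dimmer genes these shares were 5.15% and 4.37%, close to the members'. The median was -0.04, with 104 of 183 below 0, against 0.01 for all genes and -0.004 for the dimmer ones. Above 0 were 43.2% of the members, 52.0% of all genes and 49.5% of the dimmer ones. Setting ghR-34a against miR-34a directly, SLC38A2-AS1 was at least 2-fold lower in ghR-34a (0.546%, against 0.262% of all genes and 0.468% of the dimmer ones) and 0 members were higher, against 0.307% and 0.329%. At 1.5-fold there were 5 lower (2.73%, against 2.79% and 4.80%) and 7 higher (3.83%, against 2.14% and 2.51%). The comparisons share arrays and are not independent of each other.

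**Figure D2:**
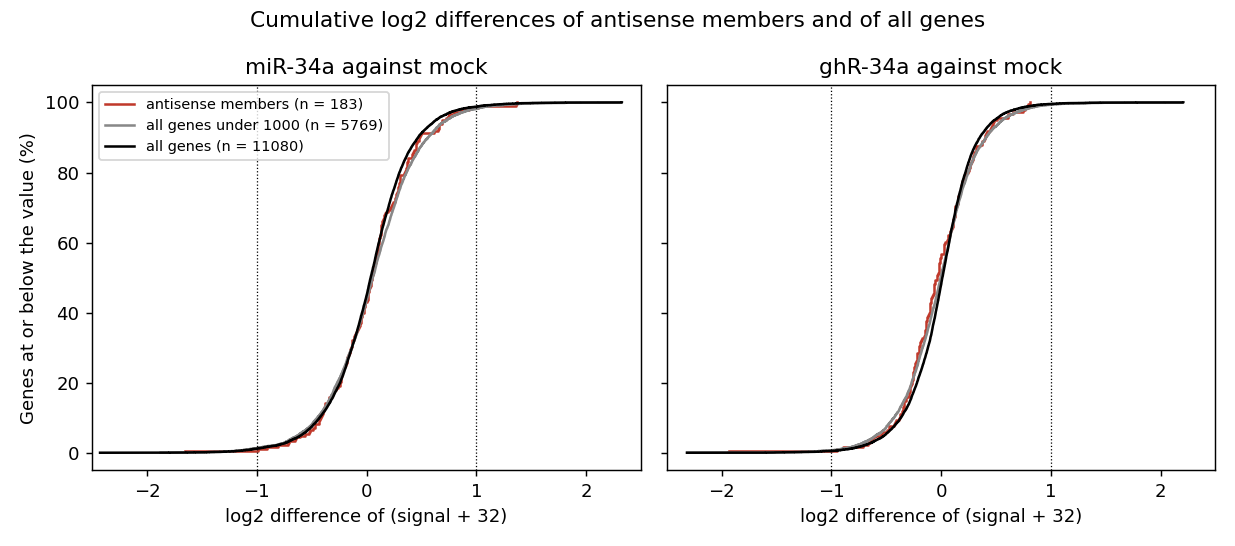
Cumulative percentage of genes at or below each log2 difference from mock, for the 183 members, the 5769 genes under a mean signal of 1000 and all 11080 genes, with dotted lines at 2-fold. The 3 curves run close together in both panels, with member medians of 0.05 for miR-34a and -0.04 for ghR-34a.

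HMMR-AS1, antisense to the hyaluronan-mediated motility receptor HMMR, a protein of the mitotic spindle, had the lowest miR-34a value of all members. Its signal was 291 in mock, 70.5 with miR-34a and 136 with ghR-34a. Mock was the highest array and miR-34a the lowest. The log2 differences from mock were -1.66 (3.15-fold lower on that scale) and -0.94. HMMR itself had 7643, 4565 and 5099, and its differences of -0.74 and -0.58 followed the same order of arrays. A second HMMR probe set gave -0.73 and -0.63. RefSeq places HMMR-AS1 on the opposite strand to HMMR and overlapping it. The orientation of the probes is not given in the sources used here, so signal from a gene and from an overlapping antisense partner cannot be told apart by strand.

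TMPO-AS1, antisense to the nuclear lamina protein TMPO (thymopoietin), went the same way with smaller values. Its signal was 325 in mock, 195 with miR-34a and 221 with ghR-34a, again highest in mock, for differences of -0.66 and -0.50. TMPO differed by -0.33 and -0.29, and its 3 other probe sets lay between -0.43 and -0.35 and between -0.29 and -0.24. The starts of TMPO-AS1 and TMPO are 636 bases apart, head to head. Among the 7 members on a fixed list for cell cycle and chromosome genes, 4 were below mock with miR-34a. Of these, 2 were lower by at least 1.5-fold (HMMR-AS1 and TMPO-AS1), and 1 of the 7, OIP5-AS1, was higher by that fold. Of all genes 5.23% were lower and 6.31% higher by it, and a list of 7 is too short to set against such shares. The list's median was -0.32 with miR-34a, against 0.04 for all genes, and -0.12 with ghR-34a, against 0.01. The miR-34a median is the value of ATP2A1-AS1, opposite a calcium pump gene, so not every listed member fits the list's name. In bulk RNA, fewer cells of a kind and less RNA per cell cannot be told apart.

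OIP5-AS1 had the highest mean signal of the members. It is a conserved noncoding RNA, known as a decoy that binds microRNAs, and its sense gene OIP5 encodes a subunit of the complex that loads CENP-A at centromeres. OIP5-AS1 had a signal of 4876 in mock, 7712 with miR-34a and 5901 with ghR-34a. OIP5 had 5291, 2439 and 3684, so mock was the lowest array for the antisense gene and the highest for the sense gene. The differences were 0.66 and 0.27 for OIP5-AS1 and -1.11 and -0.52 for OIP5. Its other probe sets gave 0.57 and 0.58 in one case and -0.01 and -0.06 in the other, so the probe sets of this gene were not alike.

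By their brightest probe set, the next 8 members in signal lay between -0.43 and 0.36 in both comparisons with mock. FGD5-AS1 had 4650 in mock, 5099 with miR-34a and 3994 with ghR-34a, at 0.13 and -0.22. ZNF232-AS1 had 2310, 1701 and 2247, lowest with miR-34a at -0.43. OTUD6B-AS1 had 1711, 2211 and 1946, at 0.36 and 0.18, and its second probe set was at 0.46 and 0.64. THAP9-AS1, EPB41L4A-AS1, FAM131B-AS2, WAC-AS1 and ZNF667-AS1 were within -0.24 and 0.19 of mock with miR-34a and within -0.10 and 0.13 with ghR-34a. FAM131B-AS2 was at -0.15 with miR-34a by that probe set, but its second, dimmer probe set was at 0.46 with miR-34a and 0.02 with ghR-34a.

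SLC38A2-AS1 starts 10 bases from the start of SLC38A2, which encodes an amino acid transporter. The signal of SLC38A2-AS1 was 192 in mock, 115 with miR-34a and 26.6 with ghR-34a. The ghR-34a array was the lowest, and its signal is in a range where background is not known. The differences were -0.61 with miR-34a, -1.94 (3.83-fold) with ghR-34a, and -1.33 between the 2 transfected arrays. SLC38A2 had 19233, 23841 and 20797, highest with miR-34a, for differences of 0.31 and 0.11. Its other 2 probe sets gave 0.29 and 0.29 with miR-34a and 0.12 and 0.09 with ghR-34a.

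SLC9A3-AS1, LMNTD2-AS1 and IDH1-AS1 had their lowest signal in mock and their highest with miR-34a. SLC9A3-AS1 had 81.6 in mock, 263 with miR-34a and 164 with ghR-34a, for differences of 1.38 and 0.79. The sense gene, the sodium and proton exchanger SLC9A3, lay below the threshold at 9.20, 6.20 and 6.04. LMNTD2-AS1 had 127, 377 and 210, for differences of 1.36 and 0.61, and its sense gene LMNTD2, with a lamin tail domain, was below the threshold at 62.4, 77.3 and 69.5. IDH1-AS1, head to head with the gene of the cytosolic isocitrate dehydrogenase IDH1, had 65.0, 164 and 133, for 1.01 and 0.77. IDH1 differed by 0.25 and -0.09, and its other probe set by 0.05 and -0.31. With miR-34a, IDH1-AS1 no longer reached 2-fold under median centring (0.95), quantile normalization (0.96) or a pseudocount of 100 (0.68), and SLC9A3-AS1 lay just under it with that pseudocount (0.998).

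Besides OIP5, the sense genes at least 2-fold from mock included FOXN3, SERTAD4 and ATXN1. FOXN3, a forkhead repressor, had 956 in mock, 346 with miR-34a and 564 with ghR-34a, differences of -1.39 and -0.73. FOXN3-AS1 had 199, 214 and 216, at 0.09 and 0.10. Of the other 3 FOXN3 probe sets, 2 were lower by 0.93 and 1.56 with miR-34a and 1 was at 0.01. With the mean of all passing probe sets, FOXN3 was at -0.97 with miR-34a, short of 2-fold.

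SERTAD4, of the SERTA domain family, had 281 in mock, 120 with miR-34a and 100 with ghR-34a, and SERTAD4-AS1 had 572, 390 and 461. Both were highest in mock. The differences were -1.04 and -1.24 for SERTAD4 and -0.52 and -0.30 for SERTAD4-AS1. With a pseudocount of 100, SERTAD4 was at -0.79 and -0.92, short of 2-fold. ATXN1, whose protein is mutated in a spinocerebellar ataxia, had 1001, 2237 and 1612, and ATXN1-AS1 had 296, 484 and 415, both lowest in mock. The differences were 1.14 and 0.67 for ATXN1 and 0.65 and 0.45 for ATXN1-AS1. The other 3 ATXN1 probe sets gave 0.85, -0.61 and 0.36 with miR-34a, so the direction of ATXN1 depended on the probe set, and the mean of all 4 was 0.44. ILRUN-AS1 had 463, 725 and 623, at 0.61 and 0.40, and ILRUN, an inhibitor of antiviral and inflammatory gene expression, had 876, 547 and 724, at -0.65 and -0.27. All 3 ILRUN probe sets were below mock in both transfected arrays.

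**Figure D3:**
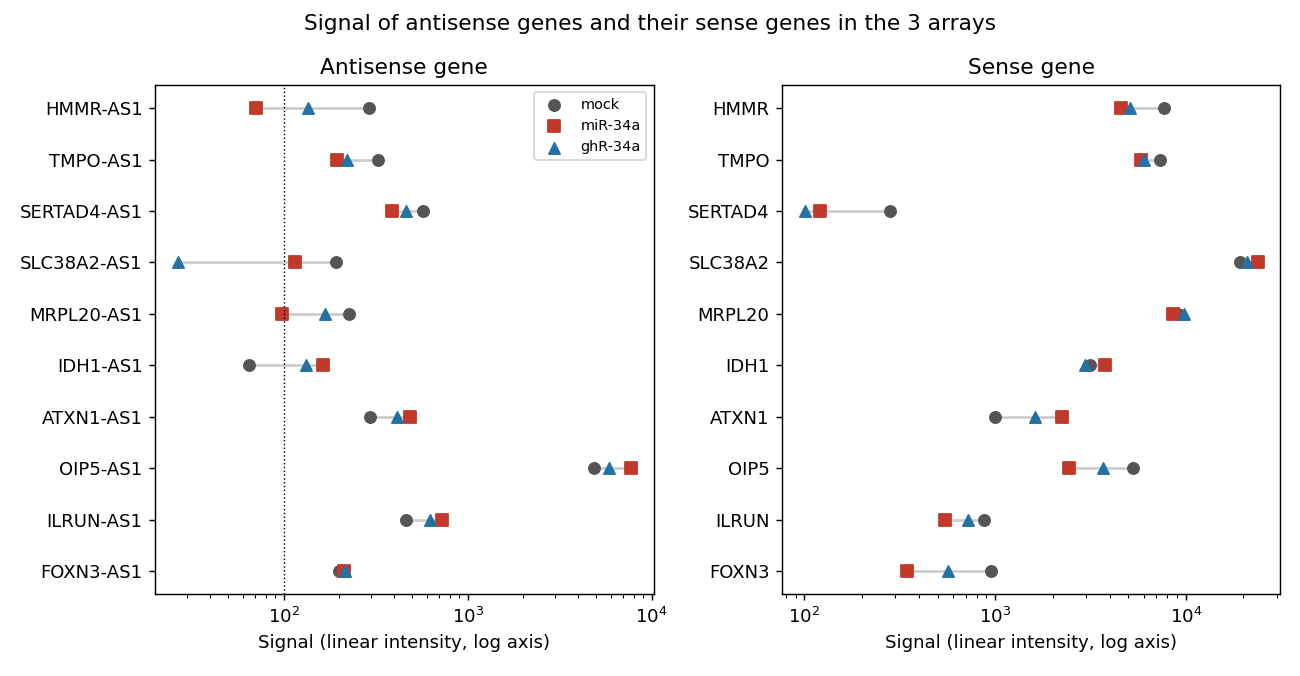
Signal (linear intensity on a log axis) of 10 antisense genes, left, and of their sense genes, right, in the mock, miR-34a and ghR-34a arrays, 1 point per array, with a dotted line at 100 on the left. HMMR-AS1 and HMMR are highest in mock, while OIP5-AS1 is lowest in mock at 4876 and OIP5 highest at 5291.

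Of the 183 members, 134 had a sense gene that passed the threshold. For 33 the sense gene was below it, and for 16 the table had no probe set with that single symbol. Among these 16 are HOXB-AS1 and HOXD-AS2, which are named after a gene cluster and not a single sense gene. With miR-34a, 78 of the 134 pairs (58.2%) lay on the same side of mock and 56 on opposite sides, and Spearman's rho across pairs was 0.11. With ghR-34a, 60 (44.8%) lay on the same side, with rho -0.04. Between the transfected arrays the count was 74 (55.2%), with rho 0.09. Pairs share their arrays and are not replicates, so these are descriptions. Only 5 pairs had both genes at least 0.5 from mock with miR-34a: HMMR, SERTAD4 and ATXN1 with the same sign, and OIP5 and ILRUN with opposite signs. With ghR-34a only the HMMR pair did. The sense genes themselves numbered 3 lower and 2 higher at 2-fold with miR-34a, 2.24% and 1.49% against 1.16% and 1.21% of all genes. With ghR-34a they numbered 1 and 0, 0.746% and 0% against 0.496% and 0.442%.

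By RefSeq starts and strands, 75 members were head to head with their sense gene, with starts at most 1000 bases apart, and 54 overlapped it on the opposite strand. Of the rest, 47 had no start listed for one side, 6 were arranged otherwise, and FAM131B-AS2 was listed on the same strand as FAM131B. Among the 63 head to head pairs with a passing sense gene, 38 lay on the same side of mock with miR-34a (60.3%) and 25 with ghR-34a (39.7%). Among the 37 overlapping pairs, these counts were 22 (59.5%) and 15 (40.5%). The shares of all 134 pairs were 58.2% and 44.8%. The medians of head to head members were 0.03 for both comparisons with mock, and those of overlapping members 0.04 and -0.11.

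With miR-34a more members were higher than lower at 1.5-fold, 16 against 9 (8.74% and 4.92%, against 6.31% and 5.23% of all genes). Among the higher ones were ANXA2R-AS1 at 0.94, PARD6G-AS1 at 0.80 and RALY-AS1 at 0.75. PARD6G-AS1 was at 0.81 with ghR-34a. The further members described here at 1.5-fold, most of them lower, lay opposite genes of varied function. MRPL20-AS1, antisense to a mitochondrial ribosomal protein gene, had 226, 97.8 and 169, at -0.99 and -0.36, while MRPL20 was at -0.09 and 0.12. EMC3-AS1, antisense to a subunit of the ER membrane complex, had 207, 105 and 121, at -0.81 and -0.65, with EMC3 at 0.38 and 0.07. Both antisense genes were highest in mock. GTF2A1-AS1, antisense to a subunit of the basal factor TFIIA, had 167, 110 and 75.2, with -0.89 in ghR-34a, and GTF2A1 was at 0.19. NDUFV2-AS1, antisense to a respiratory complex I subunit, had 120, 154 and 65.2, with -0.65 in ghR-34a, and NDUFV2 was at 0.11. TMEM147-AS1 had 833, 1080 and 1328, highest with ghR-34a, at 0.65, while TMEM147 was at 0.04. Its second probe set had 288, 245 and 293, at 0.02 with ghR-34a, so the difference was seen in 1 of 2 probe sets.

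Among 31 members on a list of those studied in cancer, 17 were below and 14 above mock with miR-34a, and 20 and 11 with ghR-34a. Of all genes, 55.1% and 52.0% were above mock. The 31 members had medians of -0.08 and -0.14, against 0.04 and 0.01 for all genes. At 1.5-fold, 1 was lower and 2 were higher with miR-34a (TMPO-AS1, then FOXP4-AS1 and OIP5-AS1), near the 5.23% and 6.31% of all genes. FOXP4-AS1 had 256, 422 and 353, at 0.66 and 0.42, while the forkhead gene FOXP4 was at 0.04 and 0.10. Among the 11 members on the list for developmental transcription factors, 5 were below and 6 above mock with miR-34a, with a median of 0.09. Of all genes, 55.1% were above mock, with a median of 0.04. PITX1-AS1 had 141, 74.0 and 134 and was lowest with miR-34a, at -0.71. GATA6-AS1 had 173, 242 and 196, at 0.42, and GATA6, an endoderm regulator, was at 0.59.

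Of the genes reported as miR-34a targets in the list, ZEB1 alone had a member opposite it. ZEB1-AS1 had 318 in mock, 233 with miR-34a and 239 with ghR-34a, lower in both at -0.40 and -0.37. ZEB1, a repressor of epithelial genes, was at -0.58 with miR-34a and 0.28 with ghR-34a, and its other 2 probe sets gave -0.65 and -0.04 with miR-34a and 0.21 and -0.01 with ghR-34a. Among the 10 members on the list for RNA-handling and translation genes, 4 were below and 6 above mock with miR-34a. Of all genes, 55.1% were above mock. At 1.5-fold, 1 of the 10 was lower (MRPL20-AS1) and 0 were higher, against 5.23% and 6.31% of all genes. Of the 8 on the list for solute carriers, ion channels and transporters, 4 were below and 4 above. That list counts TMEM147-AS1, opposite a TMEM gene, so it does not hold transporters alone. The 3 on the list for ubiquitin, proteasome and autophagy genes were PSMA3-AS1 at 0.26, PSMD6-AS2 at 0.29 and TRIM52-AS1 at -0.52 with miR-34a. Their median was 0.26, and their ghR-34a median was -0.21. The list lacks other members opposite ubiquitin genes, such as UBE2D3-AS1, at -0.18 and -0.67, and OTUD6B-AS1, at 0.36 and 0.18. A second TRIM52-AS1 probe set was at 0.22 with miR-34a. The 3 on the list for chromatin and DNA repair genes had a median of 0.01 with miR-34a. That list is not complete either. MORC2-AS1, at 0.69 with miR-34a, and BAZ2B-AS1, at -0.17, are members opposite chromatin genes that it lacks.

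Where a member had several passing probe sets, they were not always alike. In 32 such genes with 76 probe sets, all probe sets had one sign in 17 with miR-34a (53.1%, against 59.5% of all genes with several) and in 14 with ghR-34a (43.8%, against 56.2%). Among the dimmer genes with several, under a mean signal of 1000, these shares were 59.0% and 55.0%. The 2 brightest probe sets of a member differed by a median of 0.25 and 0.21, larger than the spike-in SD. For the dimmer genes these medians were 0.24 and 0.20, near the members'. For scale, the quartiles of the members' differences were -0.19 and 0.28 with miR-34a. TPT1-AS1 and SLC16A1-AS1 had probe sets on both sides of mock, whereas those of TRAF3IP2-AS1 and MCM3AP-AS1 lay on one side. The remaining 151 members had 1 probe set, so this check could not be made for them.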

How the data were processed

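Total RNA of 3 cultures of NCI-H1299 was measured on 1 array for each condition, and no test was run. The authors deposited linear probe set intensity for 54675 probe sets. The tool was Affymetrix Expression Console per the submitters' processing notes, whose version is not given in the sources used here. Every array had a 2% trimmed mean of 500, which shows that the intensity was deposited already scaled. Background correction upstream affects low values most. Differences were taken on log2(signal + 32) of the values as they stand. The 62 controls were set aside. Of the remaining probe sets, 41091 had 1 symbol, 1801 several and 11721 none in the platform annotation, which can be old, and 41037 matched a RefSeq gene by Entrez identifier. A gene was represented by its probe set with the highest mean signal. A second background, genes under a mean signal of 1000, was chosen after seeing the data.

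The sense gene was the symbol before AS. Genes were named where a member or its sense gene was at 2-fold (for sense genes, against mock), where both sides of a pair differed by at least 0.5, among the 10 highest signals, 5 on each side of the threshold, those with several probe sets, and up to 4 per list. Of the 61 members named so, only some are described in the text, and 1 pair is not reported here. EMC3-AS1, GTF2A1-AS1, NDUFV2-AS1, ANXA2R-AS1, PARD6G-AS1 and RALY-AS1 were named after their values were seen, as members at 1.5-fold. The members and the 8 lists were chosen with earlier results of these data known. The steps were tested on simulated data and run with python 3.11.15, numpy 2.4.6, pandas 2.3.3, scipy 1.17.1 and matplotlib 3.10.9. Alternatives changed the pseudocount, the threshold, the scaling, the probe sets and the fold counted.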

Additional observations from a re-analysis of the deposited data

How the results depend on the processing

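Each condition has 1 array, so no replicate could be left out, and differences at signals near 100 rest on 1 dim probe set. No paired analysis was possible because each condition has 1 array. Counts are of genes at 2-fold unless stated, lower then higher. With a pseudocount of 1, antisense members numbered 3 lower with miR-34a, 3 lower and 1 higher with ghR-34a, and 2 lower between the transfected arrays. With 100, they numbered 1 higher with miR-34a and 0 lower between the transfected arrays, and sense genes 1 higher with miR-34a and 0 lower with ghR-34a. With a mean signal of at least 50 (296 members), there were 4 lower with miR-34a, 3 lower and 1 higher with ghR-34a and 4 higher between the transfected arrays, and 6 sense genes higher with miR-34a, 2 lower with ghR-34a and 1 lower between the transfected arrays. With at least 200 (100 members), there were 0 lower and 1 higher with miR-34a, 0 lower with ghR-34a and 0 lower between the transfected arrays, and 0 sense genes lower with ghR-34a. With no filter (781 genes), members numbered 14 and 21 with miR-34a, 16 and 10 with ghR-34a and 10 and 6 between the transfected arrays, and sense genes 18 and 13, 9 and 6, and 9 and 7. Median centring and quantile normalization each gave 2 members lower with miR-34a. With the mean of all passing probe sets, 0 sense genes were higher with miR-34a. At 1.5-fold, members numbered 9 and 16, 9 and 8, and 5 and 7, and sense genes 7 and 13, 5 and 3, and 4 and 4. At 3-fold, 0 members were higher with miR-34a and 0 lower between the transfected arrays, and 0 sense genes were lower or higher with miR-34a or lower with ghR-34a. ATXN1 reversed to -0.61 with miR-34a without probe sets marked as shared between transcripts, where another probe set stood for it. With a pseudocount of 100, SLC9A3-AS1 (0.998) and IDH1-AS1 (0.68) no longer reached 2-fold with miR-34a, and SLC38A2-AS1 was at -0.76 between the transfected arrays. MRPL20-AS1 reached -1.20 with miR-34a at a pseudocount of 1, and -1.05 under both median centring and quantile normalization. Over the alternatives, the share of pairs on the same side of mock was 50.5% to 62.3% for miR-34a, and for ghR-34a it was 44.8% to 51.7%. The members' median was -0.01 to 0.06 for miR-34a, changing sign, and for ghR-34a it was -0.06 to -0.02.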

Other observations

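Zinc finger genes were taken as those with symbols starting in ZNF, ZBTB, ZSCAN or ZBED, which leaves out zinc finger genes with other symbols. Among the 15 members antisense to these, 8 were below and 7 above mock with miR-34a, while 55.1% of all genes were above. The values lay between -0.91 (ZNF674-AS1) and 0.86 (ZNF433-AS1), and the median was -0.02. The signal of ZNF674-AS1 was 321 in mock, 156 with miR-34a and 266 with ghR-34a, and that of ZNF433-AS1 was 189, 370 and 237, so the miR-34a array was the lowest for the first and the highest for the second. The 3 members antisense to forkhead genes, FOXD3-AS1, FOXN3-AS1 and FOXP4-AS1, were all above mock in both transfected arrays, with medians of 0.66 and 0.42. Of all genes, 55.1% and 52.0% were above mock, with medians of 0.04 and 0.01, and a set of 3 is too small to set against them. FOXN3-AS1 was at only 0.09 and 0.10, under the spike-in SDs of 0.13 and 0.16. FOXD3-AS1 had 82.4, 161 and 124. These members were picked out after their values were seen. KIF9-AS1, antisense to a kinesin gene, was below the signal threshold at a mean of 91.9, with 151 in mock, 20.1 with miR-34a and 104 with ghR-34a, differences of -1.81 and -0.43.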
